A study of Mus musculus with 9 samples.

Results

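The 10 genes described here encode the main regulators of mitochondrial biogenesis and fatty acid oxidation in muscle, and they were picked by symbol from the 54697 lines of a gene count table. They are the coactivators Ppargc1a, Ppargc1b and Pprc1, the nuclear receptors Ppara, Ppard, Pparg, Rxra and Esrra, the transcription factor Nrf1 and the mitochondrial DNA binding protein Tfam. RNA-seq was done on C2C12, a widely used mouse myoblast line whose cells can fuse into myotubes, and the labels give all cells the genotype WT and the time day 2. Control cells were compared with cells given 750 µM butyrate and with cells given 750 µM pentanoate for 48 h, 2 short-chain fatty acids that differ by a single carbon, with 3 libraries per group. All cells grew in DMEM with fetal bovine serum, and the sources used here do not give what the controls received in place of an acid. A single cell line stands for muscle here, and the labels do not state whether replicate libraries are from separate cultures. The p-values therefore reflect the spread of these samples alone, which may be technical.

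PGC-1 coactivators carry no DNA binding domain of their own. They dock on nuclear receptors such as the PPARs and the estrogen-related receptors, and on NRF1, and raise transcription of nuclear genes for respiration and fat oxidation. PPARs bind DNA as pairs with retinoid X receptors and respond to fatty acids, while TFAM, made from a nuclear gene under NRF1 and the ETS factor GABP, packages mitochondrial DNA and starts its transcription. In skeletal muscle, Ppargc1a is best known for its induction by endurance exercise.

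Total counts ran from 15829262 to 19305981 per library, and 14066 genes had counts high enough to be tested. Of the 10 regulators, 8 were tested, and Ppargc1a and Ppara fell under the filter on low counts. All 10 genes of a myoblast marker list were detected, and their summed level in CPM (counts scaled to library size) was between 1503 and 2281 for control, 1436 and 1858 for butyrate and 1715 and 2252 for pentanoate. Des, which encodes desmin, held the largest part of that sum (822 CPM in control, 893 CPM with butyrate). With butyrate Myod1 went from 84.3 to 45.5 CPM and Chrna1 from 263 to 134 CPM, while Myf5 went up from 29.8 to 44.3 CPM. In edgeR's test 5 of the 10 markers were called lower with butyrate and 1 higher, where 11.4% of all genes were called. Control library 3 stood apart from the other controls: genes of the mitochondrial genome took 3.95% of its counts against 1.79% to 2.32% in the other 8 libraries, and its levels followed the GC content of genes. Changes against control are therefore also given without that library where they moved by over 1.5 times.

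The sequences before the start of 4 regulators are shown, because Ppargc1a and Ppara are the pair whose few counts separated the groups, Ppard is the PPAR at high level in the same cells, and Tfam is the known target of NRF1 and GABP in this set. Each line is the 250 bases before the RefSeq start, 5′ to 3′ on the gene's own strand, in build GRCm38.p6. RefSeq starts can differ from the gene bounds of the count table. By those bounds the whole Ppara window, most of the Tfam window and the end of the Ppard window lie inside the gene. The windows are chr5:51567726-51567975 on the minus strand for Ppargc1a, chr15:85735526-85735775 on the plus strand for Ppara, chr17:28232504-28232753 on the plus strand for Ppard and chr10:71238045-71238294 on the minus strand for Tfam. Capitals mark matches, on either strand, to the NRF1 motif (GCGCATGCGC in Ppara, with any base allowed at the fifth place), AAGGTCA (estrogen-related receptors), CCGGAAG (ETS factors such as GABP), TGACGT (the core of a cyclic AMP response element) or GGGCGG (the GC box).
Ppargc1a: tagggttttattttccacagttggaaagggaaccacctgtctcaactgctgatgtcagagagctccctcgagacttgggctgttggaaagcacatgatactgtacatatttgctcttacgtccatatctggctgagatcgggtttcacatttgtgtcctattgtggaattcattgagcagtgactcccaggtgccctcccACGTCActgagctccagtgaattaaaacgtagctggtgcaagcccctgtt
Ppara: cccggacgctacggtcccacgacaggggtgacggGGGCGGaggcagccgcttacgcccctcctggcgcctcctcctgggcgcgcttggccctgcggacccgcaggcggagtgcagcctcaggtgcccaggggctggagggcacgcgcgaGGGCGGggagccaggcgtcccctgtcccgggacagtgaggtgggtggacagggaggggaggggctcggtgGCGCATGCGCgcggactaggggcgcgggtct
Ppard: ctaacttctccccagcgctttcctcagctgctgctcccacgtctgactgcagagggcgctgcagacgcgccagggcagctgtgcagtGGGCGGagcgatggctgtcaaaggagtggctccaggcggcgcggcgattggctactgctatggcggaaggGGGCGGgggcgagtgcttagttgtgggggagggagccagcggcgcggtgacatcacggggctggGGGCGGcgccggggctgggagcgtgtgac
Tfam: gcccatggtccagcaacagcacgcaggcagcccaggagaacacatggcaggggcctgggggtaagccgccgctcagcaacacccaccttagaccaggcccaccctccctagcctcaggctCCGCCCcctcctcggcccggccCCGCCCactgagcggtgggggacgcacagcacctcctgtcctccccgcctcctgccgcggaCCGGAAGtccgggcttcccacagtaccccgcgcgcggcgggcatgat

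The Ppargc1a window was 48.0% GC and held a single match, to the cyclic AMP response element core, at positions −50 to −45 counted back from the start. That match is found in 6.47% of the 32851 mouse promoter windows of the same length. The Ppara window was 76.4% GC and held the NRF1 letters at −31 to −22, found in 3.74% of all windows, together with 2 GC boxes. The Tfam window (72.0% GC) held an ETS match at −47 to −41, found in 6.91% of all windows, and 2 GC boxes, and the Ppard window (69.6% GC) held 3 GC boxes. GC boxes occur in 32.7% of all windows, and the median window is 52.4% GC. RefSeq gave 13 start sites for 9 of the regulators, and Ppargc1b had no entry. A match describes letters and not a bound site.

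Levels set per length of transcript, as CPM per kilobase with the authors' gene lengths, placed the regulators in a wide range in control cells. Rxra (19.1 ± 2.46, SD, n = 3) and Esrra (16.2 ± 5.58) came first. Pprc1 (11.4 ± 1.00), Ppard (10.7 ± 2.08) and Tfam (9.70 ± 1.20) followed, and each neighbour in this order from Rxra to Tfam overlapped the next in its 3 libraries. Nrf1 lay lower at 4.86 ± 0.174, apart from Tfam above it and from Ppargc1b below it. Ppargc1b (3.40 ± 0.981) and Pparg (3.18 ± 1.07) overlapped. Ppara stood at 0.0416 ± 0.0103, and no control library held a Ppargc1a count. The length the authors list for Esrra (2539 bases) is shorter than the exon total of 4387 bases in GENCODE M21, and that for Pprc1 (7516 bases) is longer than 6284 bases, so the places of these genes in the order depend on the length used.

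**Figure D1:**
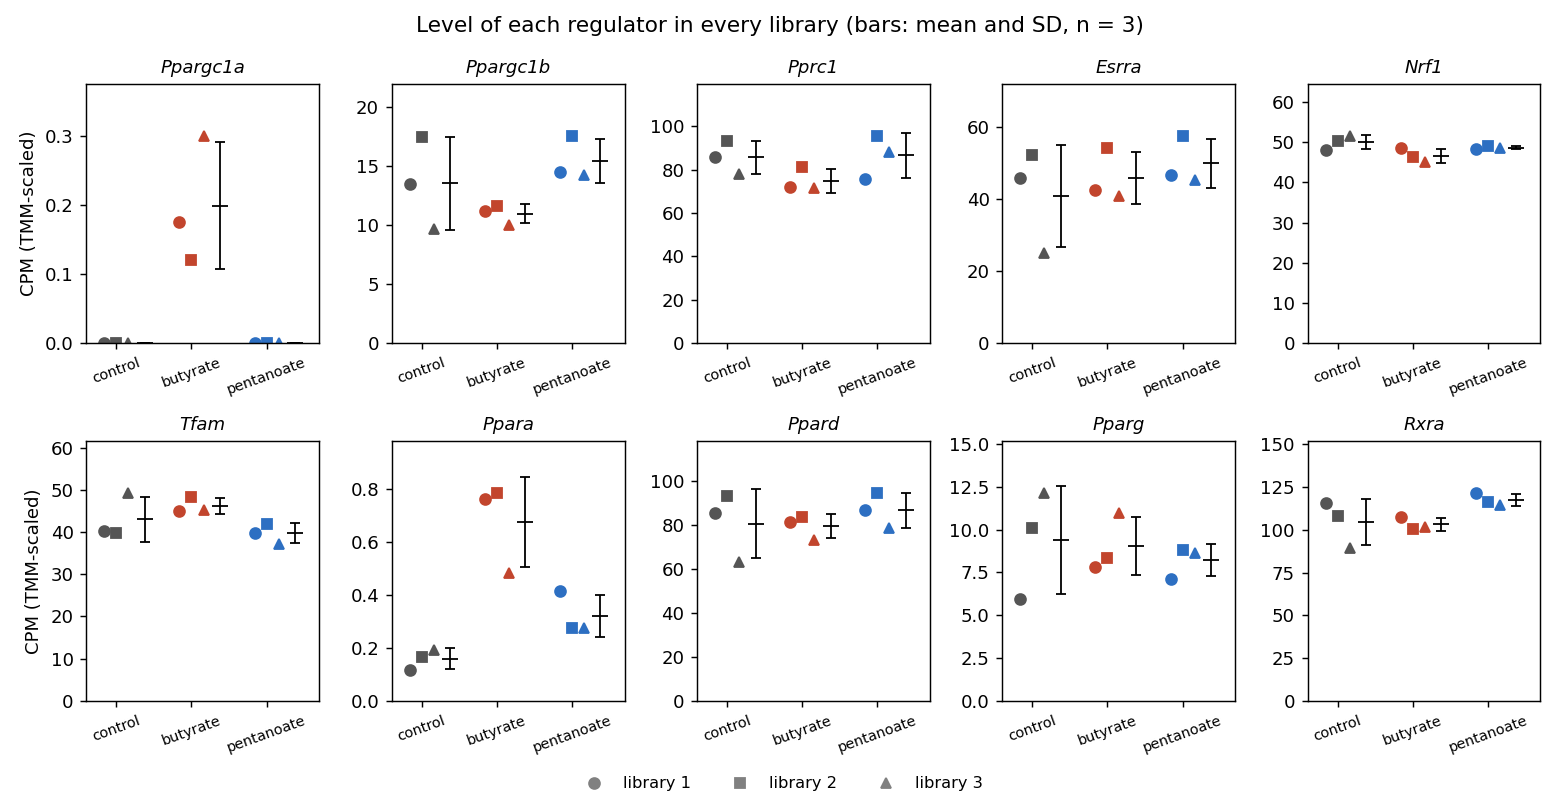
Level of each of the 10 regulators in CPM, on a linear axis of its own that starts at 0, in the 3 control (grey), 3 butyrate (red) and 3 pentanoate (blue) libraries, with circles, squares and triangles for libraries 1, 2 and 3 and the mean and SD beside them. Ppargc1a counts appear only in the butyrate libraries and Ppara is ordered control, pentanoate, butyrate, while Ppargc1b, Esrra and Ppard are lowest among the controls in library 3.

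Ppargc1a (ENSMUSG00000029167, chromosome 5, 51454250 to 51567726, minus strand) encodes PGC-1α, the founding member of the coactivator family. It had 3, 2 and 5 counts in butyrate libraries 1 to 3 and no count in any control or pentanoate library. All 10 counts thus came from butyrate-treated cells, at 0.176, 0.121 and 0.301 CPM. A control group without a count allows up to 0.0594 CPM (3 counts over the group), and a pentanoate group up to 0.0540 CPM. The butyrate level was 3.36 times that control limit, a ratio that leaves out the counting error of the 10 butyrate counts. The exact 95% counting interval of the ratio of butyrate to control, from 10 counts against 0, had its lower end at 2.26-fold. Such intervals and limits cover counting error only. The pattern was seen before its background was counted: of 4758 genes under the filter with 10 or more counts, 5 (0.105%) had no count in the 6 other libraries. Ppargc1a, with 10 counts, is at the lower edge of that set. Genes with more counts are less likely to have none in 6 libraries, so this share does not show how rare the pattern is. With no filter on low counts, edgeR's adjusted p was 0.0971 for butyrate against control and 0.157 for pentanoate against butyrate, so the difference did not pass the test. In bulk samples such as these, fewer cells that hold an RNA and less of it per cell cannot be told apart.

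Ppargc1b (ENSMUSG00000033871, chromosome 18) encodes PGC-1β, the close relative of PGC-1α, and was the coactivator with the largest fitted differences among the tested genes. Its levels were 13.5, 17.5 and 9.66 CPM in control libraries 1 to 3, 11.2, 11.7 and 10.1 CPM with butyrate, and 14.5, 17.6 and 14.2 CPM with pentanoate. Every pentanoate library was above every butyrate library, whereas the controls spanned both groups, with library 3 below them all. Between the acids the fitted difference was 1.41-fold (95% interval 1.04 to 1.90), or 0.49 on the log2 scale (SE 0.20). Same-numbered pairs gave 0.37, 0.59 and 0.50, and their shared direction follows from groups that do not overlap. The fitted difference did not pass the threshold over all genes (edgeR adjusted p = 0.219). The adjusted p was 0.0411 without control library 3 (where 10.2% of all genes passed), 0.0365 with the 6 libraries of the acids alone (9.89%) and 0.0525 with the replicate number as a block. It was 0.133 to 0.519 in the fits that left out any one of the other 8 libraries and 0.198 with DESeq2. Against control, butyrate gave −0.31 (SE 0.20, adjusted p = 0.367) and pentanoate 0.19 (SE 0.19, adjusted p = 0.693). Without control library 3 the change with butyrate was −0.49 (SE 0.15) and passed the test, at an adjusted p of 0.0473, where 15.9% of all genes did. Without control library 2 it was −0.07 (adjusted p = 0.828). The change with pentanoate was 0.0032 without control library 3 and 0.42 (adjusted p = 0.242) without control library 2, so both changes against control turned on which control libraries were kept.

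Pprc1 (ENSMUSG00000055491, chromosome 19, 46044886 to 46072915, plus strand) encodes the PGC-1-related coactivator, known for its rapid response to serum in growing cells. It had 85.7, 93.1 and 78.0 CPM in control, 71.8, 81.3 and 71.6 CPM with butyrate and 75.5, 95.6 and 88.3 CPM with pentanoate. The 3 groups overlapped, although 2 of the butyrate libraries were the lowest of the 9. The fitted difference between pentanoate and butyrate was 0.21 on the log2 scale (95% interval −0.04 to 0.45, adjusted p = 0.378). Butyrate against control gave −0.19 (−0.44 to 0.05, adjusted p = 0.307) and pentanoate against control 0.01 (−0.23 to 0.26, adjusted p = 0.966, and −0.040 without control library 3). Same-numbered pairs were lower with butyrate than in control in 3 of 3 cases (−0.26, −0.20 and −0.12) and higher with pentanoate than with butyrate in 3 of 3 (0.07, 0.23 and 0.30). Its exons share 177 bases (2.82%) with Ldb1 on the other strand, and whether counting used the strand is not stated in the sources at hand.

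Ppara (ENSMUSG00000022383, chromosome 15, 85734983 to 85802819, plus strand), the PPAR that drives fat oxidation in liver and heart, was near its detection limit. It had 2, 3 and 3 counts in the control libraries, 13, 13 and 8 with butyrate and 8, 5 and 5 with pentanoate. These are 0.159 ± 0.0396, 0.677 ± 0.169 and 0.322 ± 0.0797 CPM (SD, n = 3), and no libraries of different groups overlapped. The butyrate level was 4.28 times that of control (exact 95% counting interval 1.94 to 10.7), the pentanoate level 2.04 times (0.846 to 5.43) and the ratio of pentanoate to butyrate 0.478 (0.254 to 0.870). Among the 4758 genes under the filter with 10 or more counts, 13.7% had every butyrate library above every control library. That share was not counted for the comparisons with pentanoate. Among tested genes, groups did not overlap (higher or lower) for 18.5% with pentanoate against control and for 30.8% between the acids. With no filter, edgeR gave 2.04 on the log2 scale (SE 0.65, adjusted p = 0.0441) for butyrate against control, where 6.44% of genes passed, while pentanoate against control (1.00, adjusted p = 0.741, 1.05% of genes) and pentanoate against butyrate (−1.04, adjusted p = 0.543, 2.56% of genes) did not pass. DESeq2's adjusted p for butyrate was 0.0603. In 7 of the 9 fits that left out a library the gene entered the test only through butyrate libraries 1 and 2, where it is high, so those fits lend no support. Their adjusted p for butyrate was 0.0262 to 0.0702.

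Ppard (ENSMUSG00000002250, chromosome 17, 28232700 to 28301474, plus strand), the PPAR known as the main form in skeletal muscle, was the most abundant of the 3 PPARs. It had 85.4, 92.9 and 62.9 CPM in control, 81.4, 83.6 and 73.1 CPM with butyrate and 86.7, 94.3 and 78.3 CPM with pentanoate. Control library 3 was the lowest of the 9, and the groups overlapped. Fitted changes against control were −0.02 with butyrate (95% interval −0.32 to 0.28, adjusted p = 0.950) and 0.10 with pentanoate (−0.20 to 0.41, adjusted p = 0.762), and without control library 3 they were −0.16 and −0.037. Between pentanoate and butyrate the difference was 0.12 (−0.18 to 0.43, adjusted p = 0.725).

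Pparg (ENSMUSG00000000440, chromosome 6, 115360951 to 115490399, plus strand), the PPAR that drives fat cell formation, was measured at 5.94, 10.1 and 12.1 CPM in control. It had 7.81, 8.34 and 11.0 CPM with butyrate and 7.14, 8.83 and 8.65 CPM with pentanoate. The controls alone covered the range of both acids. Changes against control were −0.05 with butyrate (95% interval −0.59 to 0.48, adjusted p = 0.919) and −0.19 with pentanoate (−0.73 to 0.34, adjusted p = 0.751), the widest intervals among the tested regulators. They were 0.18 and 0.039 without control library 3. Among 10 markers of fat cells, Cidec and Lep had no count in any library, and Adipoq and Plin1 had 3 counts each, all with butyrate. Others were present: Cebpa was at 33.3, 21.1 and 40.5 CPM and Lipe at 8.28, 10.0 and 7.43 CPM in control, butyrate and pentanoate. Their part in the level of Pparg was not tested.

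Rxra (ENSMUSG00000015846, chromosome 2, 27676440 to 27762957, plus strand), the retinoid X receptor that pairs with each PPAR, was the highest of the regulators per kilobase. Its levels were 116, 108 and 89.6 CPM in control, 107, 101 and 102 CPM with butyrate and 121, 116 and 114 CPM with pentanoate. Every pentanoate library was above every butyrate library, and the controls overlapped both. The fitted difference between the acids was 0.19 on the log2 scale (SE 0.10, 95% interval −0.04 to 0.41, adjusted p = 0.386). Same-numbered pairs gave 0.18, 0.21 and 0.17, a shared direction that the lack of overlap already fixes. Butyrate against control gave −0.02 (−0.24 to 0.20, adjusted p = 0.935) and pentanoate against control 0.17 (−0.05 to 0.39, adjusted p = 0.483). Without control library 3 these were −0.11 and 0.08.

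Esrra (ENSMUSG00000024955, chromosome 19, 6910977 to 6921813, minus strand) encodes ERRα, the receptor through which PGC-1α acts on many respiratory chain genes. Its levels were 45.8, 52.3 and 25.1 CPM in control, 42.5, 54.3 and 41.1 CPM with butyrate and 46.8, 57.7 and 45.5 CPM with pentanoate. Control library 3 lay far below the other 8 libraries, which all lay between 41.1 and 57.7 CPM. The fitted change was 0.16 with butyrate (95% interval −0.34 to 0.66, adjusted p = 0.707) and 0.28 with pentanoate (−0.22 to 0.78, adjusted p = 0.597). Without control library 3 these were −0.08 and 0.03. A stretch of 73 bases (1.66%) of its exons is shared with Trmt112 on the other strand, and 91 bases with Mir6990, which had no count.

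Nrf1 (ENSMUSG00000058440, chromosome 6, 30047988 to 30153458, plus strand), nuclear respiratory factor 1, had nearly level values. It had 48.1, 50.3 and 51.6 CPM in control, 48.6, 46.2 and 45.2 CPM with butyrate and 48.3, 49.1 and 48.6 CPM with pentanoate. All 9 libraries lay between 45.2 and 51.6 CPM and the groups overlapped. Changes were −0.10 with butyrate (95% interval −0.28 to 0.08, adjusted p = 0.485), −0.04 with pentanoate (−0.22 to 0.14, adjusted p = 0.860) and 0.06 between pentanoate and butyrate (−0.12 to 0.24, adjusted p = 0.778). The changes against control were −0.066 and −0.0077 without control library 3.

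Tfam (ENSMUSG00000003923, chromosome 10, 71225464 to 71238280, minus strand) had 40.2, 39.7 and 49.2 CPM in control, 44.9, 48.3 and 45.1 CPM with butyrate and 39.7, 42.0 and 37.3 CPM with pentanoate. Every pentanoate library was below every butyrate library, and control library 3 was the highest of the 9. The fitted difference between pentanoate and butyrate was −0.22 on the log2 scale (SE 0.11, 95% interval −0.45 to 0.02), with an adjusted p of 0.325. Changes against control were 0.10 with butyrate (−0.13 to 0.33, adjusted p = 0.603) and −0.12 with pentanoate (−0.35 to 0.12, adjusted p = 0.642). Leaving out control library 3 gave 0.22 (adjusted p = 0.109) and −0.0039.

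Counted together, 0 of the 8 tested regulators passed the adjusted p of 0.05 for butyrate against control, where 11.4% of the 14066 genes passed (6.43% higher, 4.95% lower). None passed for pentanoate against control, where 0.803% of genes passed (0.782% higher, 0.0213% lower), or for pentanoate against butyrate, where 3.42% passed (1.81% higher, 1.61% lower). These counts are from edgeR's quasi-likelihood test, and the DESeq2 Wald test also gave 0 in each comparison, as did the replicate block, which called 20.7%, 3.65% and 10.5% of genes. Without control library 3 Ppargc1b was called with butyrate (15.9% of genes) and between the acids (10.2%), and no regulator with pentanoate (0.966%). With the block and without control library 3, a fit chosen after seeing the data, 33.6%, 12.2% and 32.2% of genes passed, and of the 8 regulators 3 were called with butyrate, 0 with pentanoate and 4 between the acids. Ppara, which entered these last fits only through its butyrate libraries, is not counted. At an unadjusted p under 0.05 the counts were 0, 0 and 1 (Ppargc1b between the acids), against 26.0%, 13.7% and 17.5% of all genes. The groups did not overlap for 0 of 8 regulators with butyrate against control (29.1% of all genes), for 0 with pentanoate against control (18.5%) and for 3 between the acids, Ppargc1b, Rxra and Tfam (30.8%). The median log2 change of the 8 was −0.04, 0.06 and 0.12 in the 3 comparisons, beside −0.02, −0.01 and 0.00 over all tested genes. The comparisons with control share the same 3 control libraries.

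**Figure D2:**
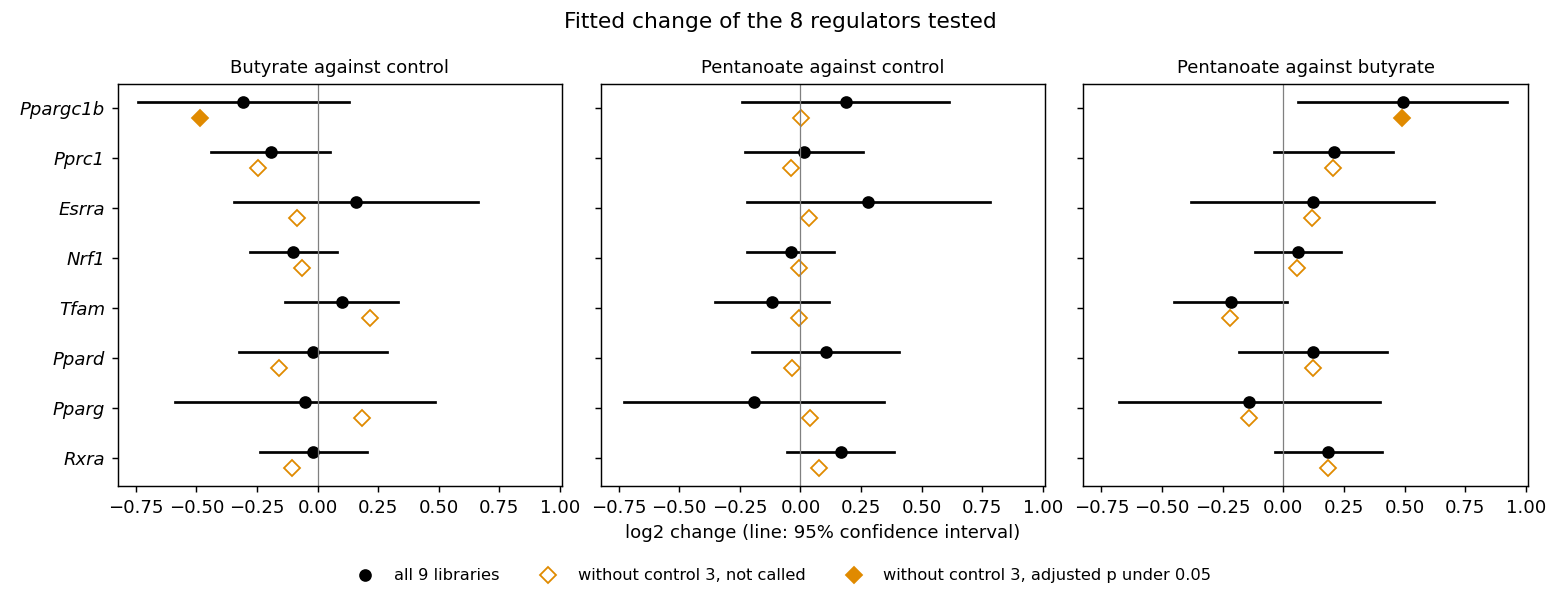
Fitted log2 change of the 8 tested regulators in the 3 comparisons (black points with 95% confidence intervals, all 9 libraries) and the value without control library 3 (orange diamonds, filled where the adjusted p is under 0.05). Each interval against control includes 0, and the filled diamonds are those of Ppargc1b, at −0.49 for butyrate against control and 0.49 for pentanoate against butyrate.

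Control library 3 departed from the mean of the other 2 controls by more than those differed from each other for 7 of the 8 regulators, all but Pparg, and its departure ran with base composition. Over 13945 tested genes with a known transcript, the log2 ratio of control 3 to the mean of controls 1 and 2 fell with GC content (Spearman −0.60, across genes, which are not independent replicates). Its median was 0.53 in the lowest of 10 equal bins of GC (median 39.4%) and −0.41 in the highest (59.6%). Among the regulators the ratio was −0.66 for Ppargc1b (57.8% GC), −0.32 for Rxra (57.0%) and −0.20 for Pprc1 (55.9%), and 0.30 for Tfam (44.9%) and 0.07 for Nrf1 (45.4%). Esrra (−0.96 at 50.3% GC), Ppard (−0.50 at 52.2%) and Pparg (0.64 at 50.2%) lay farther from 0 than the medians of their GC bins. Those medians were −0.05, −0.12 and −0.05, so Pparg alone lay on the other side of 0 from its bin median. Ppargc1b also lay farther out than its bin median (−0.41), as did Rxra (−0.29) and Tfam (0.26) by less. Pprc1 (−0.29) and Nrf1 (0.26) lay nearer to 0 than theirs. The part of GC content in the levels of these genes was not tested.

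**Figure D3:**
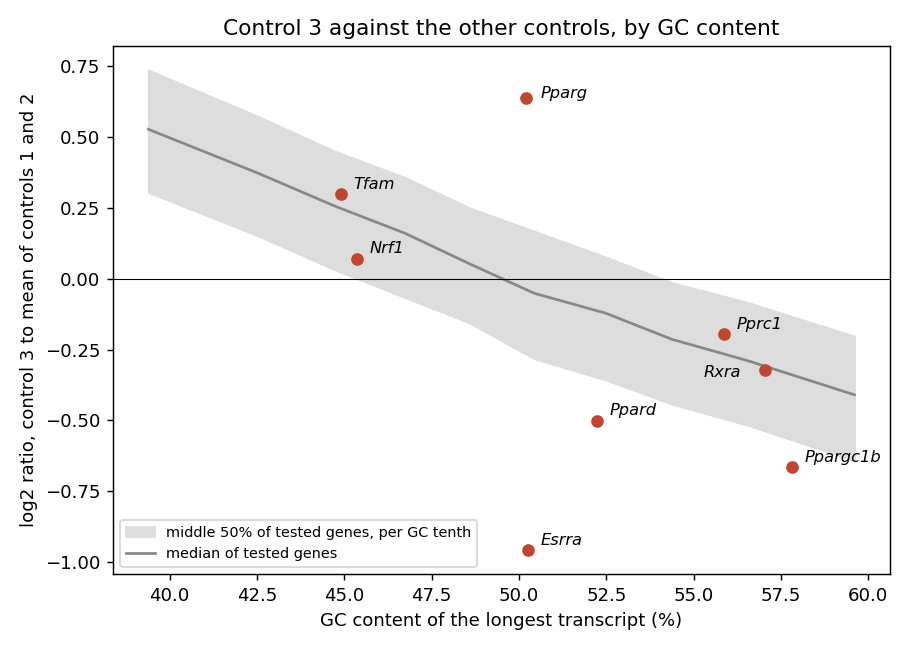
Log2 ratio of control library 3 to the mean of control libraries 1 and 2 (vertical axis) against the GC content of the longest transcript in percent (horizontal axis), with the 8 tested regulators as red points, the median of tested genes per GC bin as a line and the middle 50% of genes shaded. All of these regulators but Pparg lie on the same side of 0 as the median of their GC bin, and Esrra lies lowest at −0.96.

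Deviations from the group means showed which regulators moved together among libraries of the same group. Over 9 libraries, Pearson's r was 0.96 between Ppargc1b and Ppard, 0.95 between Ppard and Esrra and 0.94 between Ppargc1b and Esrra. It was −0.81 between Pparg and Rxra and −0.79 between Rxra and Tfam. These values are descriptions, since the libraries share control 3 and its base composition, and the deviations within a group sum to 0.

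Upstream kinases and coregulators that act on PGC-1 were measured as a list of 24 genes, 23 of them tested. With butyrate 1 rose and 2 fell, with pentanoate none was called, and between the acids 1 was higher with pentanoate (medians −0.07, 0.01 and 0.06). The fit called 11.4%, 0.803% and 3.42% of all genes in these comparisons. Sirt1, the NAD-dependent deacetylase that acts on PGC-1α, fell with butyrate from 33.3 ± 7.52 to 17.1 ± 1.27 CPM (log2 −0.97, SE 0.15, adjusted p = 0.00288) and stayed called without any single library. The change with pentanoate was −0.57 (adjusted p = 0.128). Prkaa2, the catalytic subunit of AMP-activated kinase that is typical of muscle, rose with butyrate from 3.00 ± 0.607 to 5.58 ± 0.498 CPM (log2 0.90, SE 0.20, adjusted p = 0.0159). Omitting control library 1 (0.0597) or butyrate library 3 (0.0665) ended that call. Nrip1, the nuclear receptor corepressor RIP140, fell from 24.1 ± 1.59 to 18.0 ± 1.49 CPM (log2 −0.42, SE 0.11, adjusted p = 0.0292), and the call held without control library 2 or 3 and was lost without any one of the other 7 libraries (0.0541 to 0.139). Crebbp, the acetyltransferase CBP, was higher with pentanoate (90.3 ± 2.23 CPM) than with butyrate (68.9 ± 4.92 CPM), a log2 difference of 0.39 with an SE of 0.08 and an adjusted p of 0.0347. That call was lost without control library 1, butyrate library 2 or 3 or any pentanoate library (0.0598 to 0.199). With the replicate number as a block, 2 genes of the list rose and 6 fell with butyrate, 1 fell with pentanoate and 2 were higher with pentanoate than with butyrate. The block called 20.7%, 3.65% and 10.5% of all genes. Leaving out a library moved the 3 calls with butyrate from 1 (without control library 1 or butyrate library 3, 6.63% and 5.76% of all genes) to 6 (without control library 2, 12.3%).

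Of 16 partner nuclear receptors and ETS factors, 10 were tested, 2 rose with butyrate and none was called with pentanoate. The fit called 11.4% of all genes with butyrate, 0.803% with pentanoate and 3.42% between the acids. Nr1d1, the heme receptor REV-ERBα, rose with butyrate from 41.2 ± 1.35 to 73.4 ± 7.67 CPM (log2 0.83, SE 0.11, adjusted p = 0.00111), without exception over the omitted libraries. It was lower with pentanoate (46.4 ± 4.96 CPM) than with butyrate (log2 −0.66, SE 0.11, adjusted p = 0.0113), and this call was lost without butyrate library 2 (0.0595) or 3 (0.0613) or pentanoate library 1 (0.0651) or 2 (0.0540). Nr1h3, the oxysterol receptor LXRα, rose with butyrate from 1.40 ± 0.576 to 3.03 ± 0.0813 CPM (log2 1.10, SE 0.31, adjusted p = 0.0448), and the call was lost in 7 of 9 omissions, all but those of control library 2 and pentanoate library 2 (0.0580 to 0.141).

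Genes that act on mitochondrial DNA beside Tfam, such as the polymerases and their cofactors, gave 1 call among 22 tested of 23. It was with butyrate, where 11.4% of all genes were called. Fastkd2, a mitochondrial RNA binding protein, fell with butyrate from 25.8 ± 7.47 to 16.5 ± 0.649 CPM (log2 −0.64, SE 0.17, adjusted p = 0.0401). The call was lost without any one of the butyrate or pentanoate libraries (0.0609 to 0.128), under upper-quartile scaling (0.0561) and with only the groups compared (0.0989), and without control library 3 the change was −0.36. With the replicate block 1 gene of the list rose and 3 fell with butyrate (20.7% of all genes called), and 3 were called without control library 2 (12.3%). The 13 protein genes that mitochondrial DNA itself encodes gave no call in any comparison in the fit of all 9 libraries. The replicate block called 1 lower with each acid and 1 higher with pentanoate than with butyrate. Over all genes it called 20.7%, 3.65% and 10.5%. Without control library 2, 3 of the 13 genes were called with butyrate and 1 with pentanoate (12.3% and 0.473% of all genes). Their summed level was between 19286 and 39451 CPM for control, 18876 and 21787 CPM for butyrate and 17452 and 21281 CPM for pentanoate. The median changes of −0.53 with butyrate and −0.51 with pentanoate became −0.06 and −0.15 without control library 3.

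Among known PPAR target genes 4 were higher and 2 lower with butyrate, of 23 tested and 29 listed, with a median of 0.10 beside −0.02 over all genes. This is 6 of 23 in a comparison that called 11.4% of genes. Fabp4, 1 of the 6, passed the filter on low counts through treated libraries alone, so its call adds no support. Leaving out a library moved the count from 3 (without control library 1 or butyrate library 3, 6.63% and 5.76% of all genes) to 9 (without control library 3, 15.9%). With pentanoate 1 fell, where 0.803% of all genes were called. Between the acids 1 was higher and 2 were lower with pentanoate (3.42% of all genes). These were 1 and 4 with the replicate block (10.5%) and 2 and 4 without control library 3 (10.2%). Pdk4, the kinase that shuts pyruvate out of oxidation, fell with butyrate from 74.2 ± 5.38 to 41.0 ± 0.888 CPM (log2 −0.86, SE 0.09, adjusted p = 0.000350). It also fell with pentanoate, to 49.2 ± 2.32 CPM (log2 −0.59, SE 0.09, adjusted p = 0.0116), although without pentanoate library 2 or 3 the adjusted p was 0.0639 or 0.0784. Ucp2, an uncoupling protein of the inner membrane, fell with butyrate from 151 ± 9.23 to 88.0 ± 11.3 CPM (log2 −0.78, SE 0.10, adjusted p = 0.00118). With pentanoate it stood at 149 ± 5.13 CPM (log2 −0.01 against control), and the difference between the acids was 0.76 (SE 0.10, adjusted p = 0.00585), called without any single library.

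Cpt1a, the liver form of the transferase that lets fatty acids into mitochondria, rose with butyrate from 127 ± 4.44 to 174 ± 4.09 CPM (log2 0.45, SE 0.08, adjusted p = 0.00450). It was called without any single library, and the change with pentanoate was 0.18 (adjusted p = 0.339). Slc25a20, the carnitine carrier of the next step, was lower with pentanoate (14.3 ± 0.754 CPM) than with butyrate (20.6 ± 2.14 CPM), a log2 difference of −0.52 with an SE of 0.12 and an adjusted p of 0.0426. The call was lost in 7 of 9 omissions, all but those of control library 2 and 3 (0.0515 to 0.166), and with no filter on low counts (0.0561). The calls with butyrate that are left are named after their values were seen. Plin2, a lipid droplet coat protein, rose by 0.33 (SE 0.09, adjusted p = 0.0409, lost in 7 of 9 omissions at 0.0526 to 0.122), Fabp4, a fatty acid carrier of fat cells, went from 0.160 ± 0.0432 to 1.08 ± 0.599 CPM, a rise of 2.71 (SE 0.62, adjusted p = 0.0184), and Acadvl, the very-long-chain acyl-CoA dehydrogenase, rose by 0.33 (SE 0.09, adjusted p = 0.0435, lost in 7 of 9 omissions at 0.0577 to 0.145). Fabp4 is also in the list of adipocyte markers, passed the filter on low counts through treated libraries alone, and its call was lost without control library 1 (0.0597) or butyrate library 3 (0.0784). In fits of only the groups compared, the calls of Nrip1 (0.0952), Nr1h3 (0.0752), Plin2 (0.0670) and Acadvl (0.102) with butyrate and of Pdk4 with pentanoate (0.0920) were lost too. With no filter on low counts Nrip1 (0.0681), Plin2 (0.0727) and Acadvl (0.0911) were lost, as was Nrip1 under upper-quartile scaling (0.0575).

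**Figure D4:**
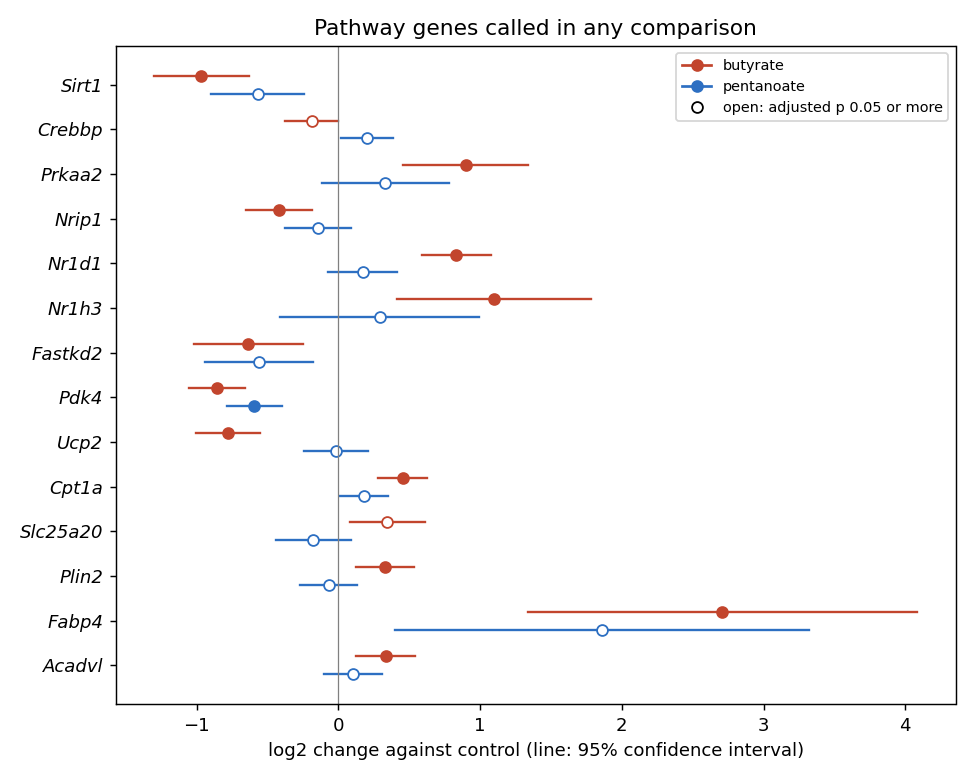
Log2 change against control with butyrate (red) and pentanoate (blue) of the 14 genes of the pathway lists named in the text, with 95% confidence intervals, filled where the adjusted p is under 0.05 and open otherwise. Sirt1, Pdk4 and Ucp2 fell and Nr1d1 and Cpt1a rose with butyrate, and with pentanoate the single filled point is that of Pdk4 at −0.59.

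The 31 genes of the citric acid cycle, the respiratory chain and mitochondrial import that PGC-1 and ERR are known to raise were all tested, and 0 passed in any comparison in edgeR's fit of all 9 libraries. That fit called 11.4%, 0.803% and 3.42% of all genes. The median change of the 31 genes was 0.04 with butyrate, −0.03 with pentanoate and −0.04 between pentanoate and butyrate. Their summed level was between 5930 and 6876 CPM for control, 6551 and 7073 CPM for butyrate and 6161 and 6830 CPM for pentanoate. With the replicate block 1 gene rose with butyrate (20.7% of all genes called). Without control library 3, 1 gene rose with butyrate (15.9%) and 1 was lower with pentanoate than with butyrate (10.2%).

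Most markers of other cell types were at low levels. The highest were Zic1 (39.7, 33.0 and 41.2 CPM in control, butyrate and pentanoate) and Cebpa (33.3, 21.1 and 40.5 CPM). Of 10 adipocyte markers 4, 6 and 5 were detected in control, butyrate and pentanoate, with summed levels of 37.7 to 45.9, 29.8 to 34.3 and 39.4 to 55.3 CPM that were mostly Cebpa and Lipe. Of 8 brown adipocyte markers, Ucp1, Cidea and Ebf2 had no count, and the sums of 40.3 to 57.2, 35.3 to 43.3 and 41.6 to 55.7 CPM were mostly Zic1. Of 10 blood cell markers, Adgre1 and Hbb-bt had no count and Ptprc had 4, but the sum was 6.64 to 7.83 CPM with butyrate against 1.94 to 2.51 in control and 2.48 to 3.09 with pentanoate. The highest of them with butyrate was Hba-a1, an alpha globin gene, at 3.59 CPM with butyrate and 0.425 CPM in control. Within the myoblast list 1 marker rose and 5 fell with butyrate, none was called with pentanoate, and 2 were higher with pentanoate than with butyrate. Over all genes 11.4%, 0.803% and 3.42% were called. The part of these marker changes in the values above was not tested.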

How the data were processed

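RNA-seq libraries came from C2C12 cells and were made with a SMARTER mRNA kit from RNA taken up in Trizol, per the labels' protocols. The table deposited by the authors holds raw counts per gene, in whole numbers whose totals differ between libraries, beside gene symbols, Ensembl identifiers, coordinates and gene lengths. The build was GRCm38 (mm10), per the submitters' processing notes. No source used here names the aligner, the counting program or the use of strand. Of 54697 lines, 165 carry no Ensembl identifier (0.0918% to 0.107% of a library's counts) and were kept.

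The filter filterByExpr of edgeR 4.0.16 (R 4.3.3, limma 3.58.1) left 14066 genes. Library sizes were scaled by TMM, and edgeR's quasi-likelihood test (glmQLFit, robust) was run with all 9 libraries in a single fit, with p-values adjusted by the Benjamini-Hochberg method over all tested genes in each comparison and a threshold of 0.05. Standard errors were computed as the absolute log2 change over the root of F and are approximate, as are the intervals made from it. The common biological coefficient of variation was 14.4%. The fit was tested on simulated counts. Alternatives were DESeq2 1.42.0, its size factors, upper-quartile scaling, no filter, fits of the 2 groups compared alone, the replicate number as a block and the omission of each library. The block without control library 3 was chosen after seeing the data. Where an omission leaves 2 libraries in a group, the spread is still shared by all groups.

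Replicate numbers come from the labels. In all 9 same-numbered pairs the deviations from group means had an r of 0.20 to 0.41, above a criterion of 0.1, against −0.33 to 0.013 in the 18 others. Deviations within a group sum to 0, so a higher r in same-numbered pairs itself lowers that of the others. The numbers may thus pair the libraries. The main fit leaves this pairing out, and so do all SEs, intervals and adjusted p-values given without naming the block.

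The regulators, the pathway lists and the marker lists were chosen with earlier results of these data known. The text names all 10 regulators and, from each pathway list, the up to 4 called genes of smallest p. The genes whose levels run most like a regulator's were to be named for regulators called with butyrate, and there were none. GC content is that of the longest GENCODE M21 transcript, and promoter sequences are from RefSeq (GRCm38.p6). Python 3.11.15, with pandas 2.3.3 and with matplotlib 3.10.9, made the figures.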

Additional observations from a re-analysis of the deposited data

Results flagged for a closer look

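For 5 pathway genes the effects of butyrate and pentanoate, measured against the same control libraries, differed by the test of pentanoate against butyrate itself (edgeR, adjusted over all genes). That test called 3.42% of all genes. The calls were 1 of 23 coregulators, 1 of 10 partner receptors and 3 of 23 PPAR targets, with 0 in the lists of 22, 31 and 13 tested genes. Whether these lists depart from the share over all genes was not tested. Ucp2 was higher with pentanoate by 0.76 on the log2 scale (adjusted p = 0.00585) and Crebbp by 0.39 (adjusted p = 0.0347). Nr1d1 was lower with pentanoate by −0.66 (adjusted p = 0.0113), Slc25a20 by −0.52 (adjusted p = 0.0426) and Plin2 by −0.40 (adjusted p = 0.0426), the last from 147 ± 0.826 CPM with butyrate to 112 ± 10.5 CPM with pentanoate (SD, n = 3). Of these, the Ucp2 difference was called without any single library, whereas that of Plin2 was lost without any one of the butyrate or pentanoate libraries (0.0725 to 0.150). None of the 8 tested regulators showed such a difference past the threshold in the fit of all 9 libraries, and Ppargc1a and Ppara were not tested there. Ppargc1b passed in edgeR without control library 3 (adjusted p = 0.0411, 10.2% of all genes called) and with the acids alone (0.0365, 9.89%). Groups of 3 libraries were not tested for an outlying library.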

How the results depend on the processing

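Counts of genes called for butyrate against control, pentanoate against control and pentanoate against butyrate were 1601, 113 and 481. They were 1952, 324 and 888 with the DESeq2 Wald test, 1708, 278 and 679 with no filter, 1004, 25 and 1365 with only the groups compared, 2916, 514 and 1483 with the replicate block, and 4830, 1759 and 4632 with the block and without control library 3. Leaving out a library gave 753 to 2285, 27 to 139 and 75 to 1469. Upper-quartile scaling moved the share of higher calls with butyrate from 56.5% to 68.8%, and between the acids from 53.0% to 41.1%.

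The count of regulators called was 0 of 8 tested in each comparison. With no filter, which admits Ppara, it became 1 for butyrate (Ppara, 6.44% of all genes). With the acids alone it became 1 between them (Ppargc1b, 9.89%). Over the omitted libraries it was 0 to 2, 0 to 0 and 0 to 1, where 5.23% to 15.9%, 0.188% to 0.966% and 0.523% to 10.2% of all genes passed. Ppara, if called there, had passed the filter only through butyrate libraries 1 and 2. The replicate block called 0 in each comparison (20.7%, 3.65% and 10.5% of all genes). With the block and without control library 3, where 33.6%, 12.2% and 32.2% of genes passed, it was 4, 0 and 4. With butyrate these were Ppara (admitted in the same way), Ppargc1b (−0.42), Pprc1 (−0.24) and Tfam (0.24), and between the acids Ppargc1b (0.49), Pprc1 (0.20), Rxra (0.18) and Tfam (−0.22).

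Signs turned only for values that were not called. Under upper-quartile scaling the changes with butyrate were 0.032 for Ppard, 0.0037 for Pparg and 0.033 for Rxra. With the block and without control library 3 they were 0.10 for Pparg and −0.021 for Esrra, and with pentanoate −0.040 for Pprc1, 0.0020 for Nrf1 and 0.023 for Tfam. Over the omitted libraries the change with butyrate ran from −0.16 to 0.10 for Ppard, −0.29 to 0.18 for Pparg, −0.11 to 0.070 for Rxra and −0.084 to 0.38 for Esrra, and with pentanoate from −0.051 to 0.11 for Pprc1, −0.037 to 0.22 for Ppard and −0.45 to 0.039 for Pparg. The cause was not tested. Depth limits Ppargc1a and Ppara, at 0 to 13 counts per library.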
